A study of Mus musculus with 4 samples.

Results

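The integrated stress response is described here through 10 genes: Gdf15, Atf4, Ddit3, Asns, Chac1, Trib3, Sesn2, Cebpb, Atf3 and Ppp1r15a. They were picked by gene symbol from a transcript table of 25796 symbols, and for each symbol the listed transcript with the highest mean over 4 libraries was used. The symbols were chosen with earlier results of the same WT and Ythdf1 KO contrast known, so the p and q values given for them describe the fits and are no independent support. All 10 were found, and all 10 passed a filter, a value of 1 or more in 2 or more libraries.

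The libraries are inputs, that is RNA not enriched for N6-methyladenosine (m6A), from colon epithelium of mice. There were 2 libraries labelled WT and 2 labelled Ythdf1 KO, a genotype that lacks the m6A reader YTHDF1. In all 4, colon pieces had been shaken at body temperature in a buffer with EDTA, DTT and the ROCK inhibitor Y-27632, and the released cells were pelleted for total RNA. The labels do not give the age or sex of the mice, how many mice entered a library, or in which cells Ythdf1 was deleted, so the spread behind each p-value is that between these 4 libraries and may be technical. Each library held 21686140 to 30951138 recovered reads over 1 transcript per gene. Values are not scaled to transcript length, so levels are compared between libraries and not between genes. In normalised read counts, Ythdf1 itself stood at 1088 and 775.4 in WT 1 and 2. The libraries labelled Ythdf1 KO 1 and 2 held 1752 and 1737, a ratio of 1.87 (q = 0.0145 in the authors' deposited table). The targeted transcript was thus higher there, not lower, and all directions below follow the labels. The table holds 1 value per transcript, so that a deletion of part of the gene could not be seen in it.

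The integrated stress response starts when a kinase (PERK, PKR, GCN2 or HRI) phosphorylates the translation factor eIF2. Most protein synthesis then falls, while the mRNA of the transcription factor ATF4 is translated more, so that Atf4 mRNA need not follow the activity of the pathway. ATF4 pairs with other bZIP factors at composite C/EBP-ATF elements and switches on genes of amino acid supply, redox balance and feedback, and GADD34 (Ppp1r15a) brings a phosphatase back to eIF2. In gut epithelium the pathway is known to respond to infection, starvation and misfolded secretory proteins, and GDF15 is a secreted hormone that several stress pathways raise.

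Of the 10 genes, Gdf15, Cebpb and Atf3 lay higher in both libraries labelled Ythdf1 KO than in both WT libraries, at 2.35, 1.94 and 1.58 times the WT mean. Asns lay lower in both, at 0.559 times. The other 6 (Atf4, Ddit3, Chac1, Trib3, Sesn2 and Ppp1r15a) had libraries that overlapped between the groups. Among all 23116 genes tested, 14.3% lay above both WT libraries and 21.4% below both. In limma-trend, a fit across all genes of log2(value + 1), 0 of the 10 passed a Benjamini-Hochberg adjusted p of 0.05, and 0% of all genes did. At an unadjusted p under 0.05 there were 3 of the 10, all higher under the Ythdf1 KO label, where 1.92% of all genes were called on that side, 3.52% on the lower side and 5.44% in all. The authors' deposited table held q under 0.05 for the same 3, where it called 1.38% of all genes higher and 3.58% lower.

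**Figure D1:**
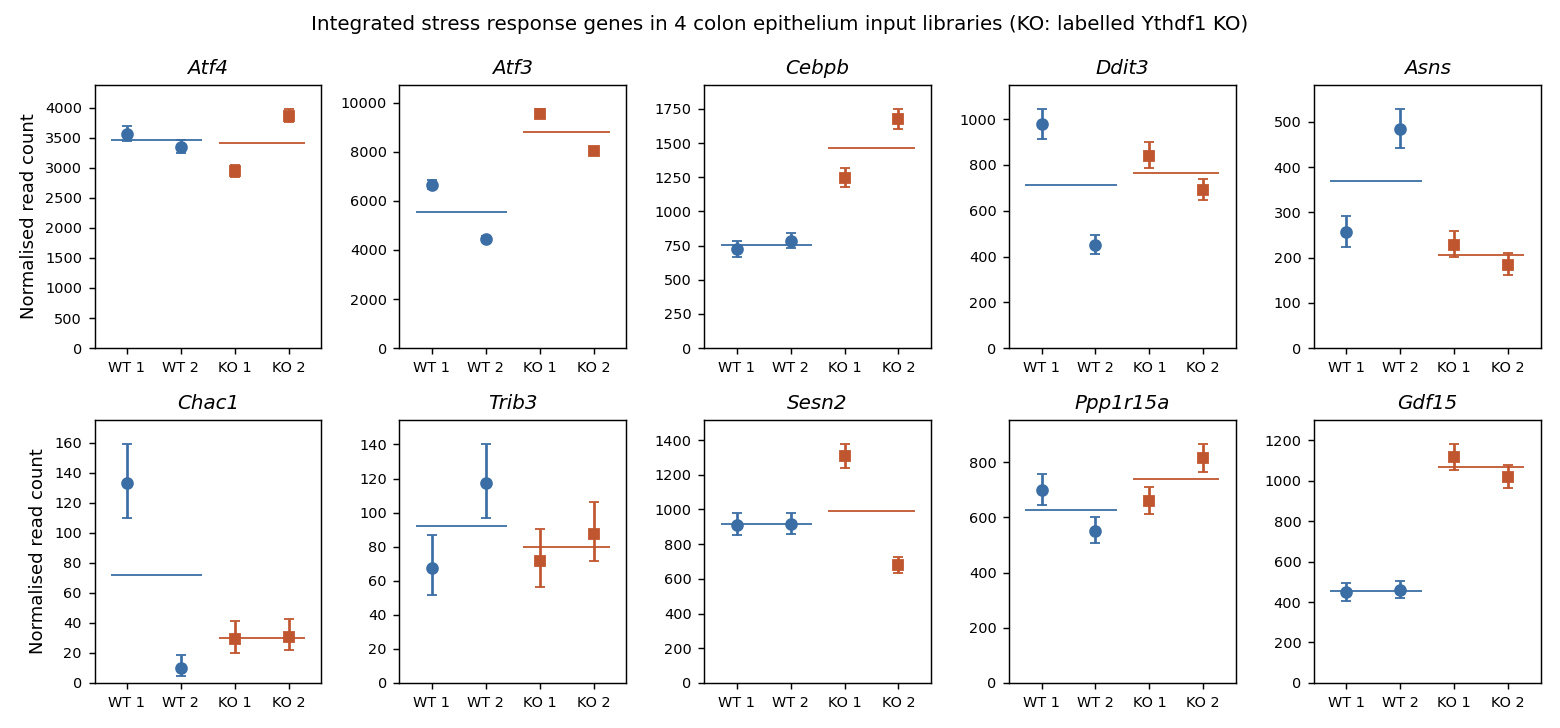
Normalised read count (vertical axes, linear, from 0) of the 10 genes in each library (horizontal axes), with exact 95% Poisson intervals that cover counting error only and horizontal lines at the group means. Gdf15 stood at 448.6 and 461.4 in WT, against 1118 and 1018 under the Ythdf1 KO label, while Chac1 ranged from 10.1 to 133 within WT alone.

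The stretches of 250 bases upstream of the RefSeq transcription start are shown for the 3 genes that lay higher, Gdf15, Cebpb and Atf3, and for Asns and Chac1, which are textbook ATF4 targets. All 10 genes matched a RefSeq promoter entry (GRCm38.p6). Capitals mark matches, on either strand, to TGATGNAA (the core of the C/EBP-ATF composite element) or to TGACGTNA (the cAMP response element and a close variant). These motifs do not overlap in any of the 10 genes.
Gdf15 (chr8:70632457-70632706, minus strand): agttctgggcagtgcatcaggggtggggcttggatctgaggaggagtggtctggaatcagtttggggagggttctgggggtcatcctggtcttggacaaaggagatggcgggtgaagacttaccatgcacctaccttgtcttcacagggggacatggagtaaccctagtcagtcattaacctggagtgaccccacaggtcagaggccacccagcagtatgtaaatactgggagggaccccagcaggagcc
Cebpb (chr2:167688665-167688914, plus strand): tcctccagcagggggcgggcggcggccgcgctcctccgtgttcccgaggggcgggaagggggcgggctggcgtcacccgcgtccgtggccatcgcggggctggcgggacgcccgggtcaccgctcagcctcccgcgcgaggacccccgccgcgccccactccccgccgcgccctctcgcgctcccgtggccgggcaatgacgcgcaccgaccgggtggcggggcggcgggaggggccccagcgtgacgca
Atf3 (chr1:191183334-191183583, minus strand): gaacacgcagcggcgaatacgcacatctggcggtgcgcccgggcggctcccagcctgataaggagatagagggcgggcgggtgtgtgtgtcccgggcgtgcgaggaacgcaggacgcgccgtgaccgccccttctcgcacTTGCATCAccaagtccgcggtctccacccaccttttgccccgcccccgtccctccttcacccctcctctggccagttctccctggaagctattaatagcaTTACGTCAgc
Asns (chr6:7693210-7693459, minus strand): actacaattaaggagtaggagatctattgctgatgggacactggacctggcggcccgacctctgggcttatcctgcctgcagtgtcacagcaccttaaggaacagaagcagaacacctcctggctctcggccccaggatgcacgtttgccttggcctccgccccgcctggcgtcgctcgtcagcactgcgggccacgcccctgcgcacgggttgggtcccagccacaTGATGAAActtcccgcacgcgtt
Chac1 (chr2:119350992-119351241, plus strand): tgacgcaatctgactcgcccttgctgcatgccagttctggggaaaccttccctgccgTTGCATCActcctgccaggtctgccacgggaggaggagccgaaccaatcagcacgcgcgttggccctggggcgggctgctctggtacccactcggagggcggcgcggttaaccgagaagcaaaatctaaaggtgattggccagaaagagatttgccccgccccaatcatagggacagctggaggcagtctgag

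TGATGNAA was found in 3 of the 10 genes, 23 bases before the start of Asns, 110 before that of Atf3 and 193 before that of Chac1 (counted from the first base of the match). It occurs in 3.45% of the 32851 windows of the same length in the RefSeq table. TGACGTNA was found in Atf3, 10 bases before the start, and in Ppp1r15a, 12 bases before it, and occurs in 2.52% of the windows. The genes with TGATGNAA in this window thus include 1 that lay higher under the Ythdf1 KO label (Atf3), 1 that lay lower (Asns) and 1 whose libraries overlapped (Chac1), and neither motif's letters are in the windows of Gdf15 and Cebpb. Gdf15 has 2 RefSeq windows, of which the more upstream is printed, and the start of its most abundant listed transcript lies inside the gene, downstream of both.

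Gdf15 encodes a secreted member of the TGF-beta superfamily whose known receptor, GFRAL, sits on neurons of the hindbrain. Its transcript NM_011819.2 (gene ID 23886, mm10 chromosome 8, 70629394 to 70631635, minus strand) averaged 455 ± 9.04 in WT, against 1068 ± 70.4 under the Ythdf1 KO label (SD, n = 2 each). The lowest library of the latter group was 2.21 times the highest WT library, while libraries of one label differed by at most 1.098 times. Limma-trend put the log2 difference at 1.23 ± 0.32 (SE), adjusted p = 0.759, and its 95% interval ran from 1.38-fold to 3.98-fold higher. In the authors' deposited table the log2 fold change was 1.23 with q = 0.000559, and DESeq2 on recovered reads gave an adjusted p = 0.000355. With any 1 library left out, the log2 difference stayed between 1.16 and 1.30.

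A second Gdf15 transcript, XM_011242304.2, starts further upstream and overlaps the first, so that reads in the overlap can count for both, and its mean over the 4 libraries was 750.8 against 761.5. It stood at 580.5 and 352.4 in WT 1 and 2, against 1104 and 966.1 under the Ythdf1 KO label. The WT libraries lay further apart on this transcript and in the other order, and both still lay below both libraries of the other label, at a ratio of 2.22. No other listed gene overlapped Gdf15 in the genome.

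Cebpb encodes C/EBP-beta, a bZIP factor without introns in its gene that pairs with ATF4 and also serves inflammatory signals. It stood at 723.6 and 786.5 in WT 1 and 2, against 1247 and 1677 in Ythdf1 KO 1 and 2 by label, so that the latter group was the more spread. The means were 755.1 ± 44.4 and 1462 ± 304 (SD, n = 2 each), and the lowest library of the higher group was 1.59 times the highest WT library. Limma-trend gave 0.94 ± 0.29 (SE) on the log2 scale, adjusted p = 0.759, and in the authors' deposited table it was 0.95 with q = 0.0124. The 3 listed Cebpb transcripts have the same coordinates (chromosome 2, 167688915 to 167690432) and the same values, and count as 1 measurement.

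Atf3 encodes a stress-induced bZIP factor that ATF4 is known to raise, and that is also an immediate early gene. It stood at 6660 and 4448 in WT 1 and 2, against 9555 and 8014 in Ythdf1 KO 1 and 2 by label. The groups did not overlap, but the WT libraries differed by 1.50 times, more than the 1.20 times between WT 1 and the lower library of the other label. The log2 difference in limma-trend was 0.68 ± 0.23 (SE), adjusted p = 0.759, and it was 0.39 without WT 2 and 0.98 without WT 1. The authors' deposited table gave 0.66 with q = 0.0399.

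Atf4, the central transcription factor of the pathway, stood at 3569 and 3351 in WT 1 and 2, against 2944 and 3866 in Ythdf1 KO 1 and 2 by label. Both WT values lay between those of the other group. The ratio of means was 0.984, and the limma-trend log2 difference of -0.04 had a 95% interval from -0.53 to 0.46, so a difference within that range was not detectable here. The second listed transcript, which shares the gene's start and end, gave a ratio of 0.998. The direction of the Atf4 difference turned with edgeR (log2 difference 0.002).

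Ddit3 encodes CHOP, a bZIP factor that ATF4 raises and that favours cell death under lasting stress. The transcript with its highest mean stood at 977.2 and 450.3 in WT 1 and 2, against 840.5 and 691.5 in Ythdf1 KO 1 and 2 by label. The WT libraries differed by 2.17 times and enclosed both others, and the ratio of means was 1.07. The limma-trend log2 difference was 0.20, with a 95% interval from -0.90 to 1.30. The 3 other listed transcripts had ratios between 1.30 and 1.61. NM_001290183.1 had the lowest mean of the listed transcripts. Its groups did not overlap, with 328 and 239.3 against 537.1 and 373.9 (q = 0.467 in the authors' deposited table). NM_007837.4, with the same start and end, had the same values under the Ythdf1 KO label. It overlapped through WT 1, at 463.3, so what Ddit3 shows depends on the transcript. The Ddit3 transcript used overlaps the opposite-strand gene Mars over 71 bases, and without a stated strand setting reads there cannot be told apart.

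**Figure D2:**
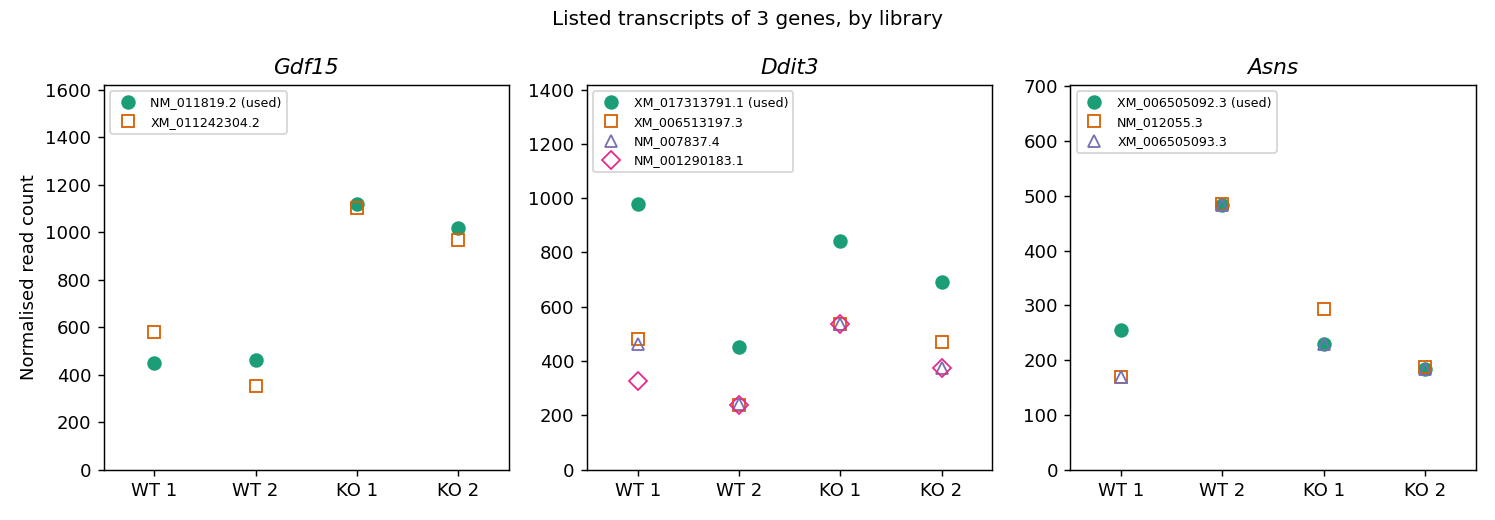
Normalised read count (vertical axes, linear, from 0) of every listed transcript of Gdf15, Ddit3 and Asns in each library, with filled symbols for the transcript used. Both Gdf15 transcripts are at 966.1 or more under the Ythdf1 KO label and at 580.5 or less in WT, whereas WT 1 and WT 2 differ 2.17 times on the used Ddit3 transcript.

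Asns, Chac1 and Trib3 are classical ATF4 targets. Asns, which makes asparagine from aspartate, stood at 255.9 and 483.6 in WT 1 and 2, against 228.8 and 184.5 in Ythdf1 KO 1 and 2 by label. The groups did not overlap, but WT 1 lay closer to the other group than to WT 2, and the limma-trend log2 difference of -0.77 had a 95% interval from -2.15 to 0.60 (adjusted p = 0.816). Transcript NM_012055.3, with a mean of 283.8 over the 4 libraries against 288.2 for the one used, had WT values of 169.1 and 484.6 that enclosed 293.8 and 187.8. The third transcript also overlapped, so Asns lay outside the WT range on 1 of 3 transcripts, and with quantile normalisation 0 of the 10 genes lay below both WT libraries.

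Chac1, which breaks down glutathione, stood at 133 and 10.1 in WT 1 and 2, against 29.08 and 30.61 under the Ythdf1 KO label. WT 2 rested on 10 reads and WT 1 on 118, so the WT libraries differed by 13.2 times and the fold between groups was not determined (95% interval 0.0248 to 25.8). Trib3, a pseudokinase that dampens ATF4 and AKT signalling, stood at 67.63 and 117.1 in WT, against 71.74 and 87.68 in the others, where both values lay within the WT range. With quantile normalisation the directions of both turned to higher, with log2 differences of 1.11 for Chac1 and 0.26 for Trib3.

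Sesn2 encodes sestrin 2, a leucine sensor that restrains the kinase complex mTORC1 and is raised by ATF4 and p53. The WT libraries lay close together at 913 and 916.7, while those labelled Ythdf1 KO 1 and 2 stood at 1308 and 679.1, 1 above and 1 below. Ppp1r15a stood at 701.1 and 552.3 in WT, against 660.2 and 815.6 under the Ythdf1 KO label, a ratio of 1.18, and the limma-trend log2 difference of 0.24 had a 95% interval from -0.59 to 1.07. Neither gene separated the groups. Ppp1r15a shares 11 bases with the opposite-strand gene Tulp2.

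**Figure D3:**
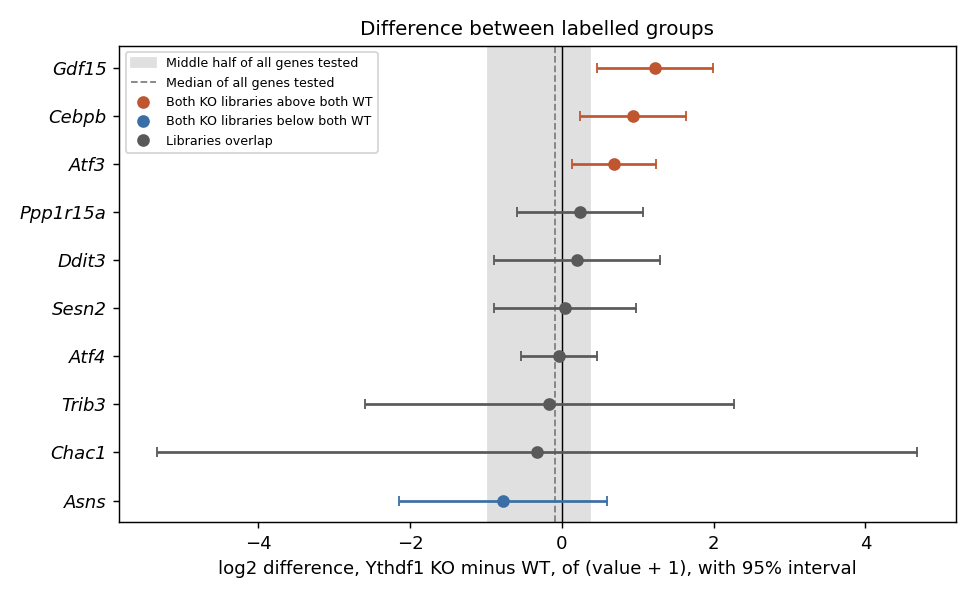
Limma-trend log2 difference of (value + 1), libraries labelled Ythdf1 KO minus WT (horizontal axis), with 95% intervals, for each of the 10 genes. The grey band spans the quartiles of all genes tested, from -0.98 to 0.37, and the intervals of Gdf15, Cebpb and Atf3 lie above 0 while that of Chac1 runs from -5.33 to 4.69.

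The median log2 difference of the 10 genes was 0.12, against -0.09 over all genes tested. It was 0.58 without WT 1, the library in which Chac1 and Ddit3 were highest, and 0.06 without WT 2. Over the 17148 genes whose mean lay in the range of the 10 (50.7 to 7170), 15.6% lay above both WT libraries, 19.4% lay below, and the median was -0.05. The list mixes genes with opposite differences, and as a set its 3 above and 1 below are too few to read against these shares.

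Genes upstream in the pathway were next compared. Of 10 eIF2 kinases and their regulators, 0 passed in limma-trend, 3 lay above both WT libraries and 1 below, against 14.3% and 21.4% of all genes. Their median log2 difference was 0.12, and it ranged from -0.08 (without Ythdf1 KO 1) to 0.40 (without Ythdf1 KO 2) with 1 library left out. Eif2ak2 (PKR, the kinase that senses double-stranded RNA and is itself interferon-induced) stood at 812.7 and 878.4 in WT, against 1758 and 1470 under the Ythdf1 KO label, a ratio of 1.91, and was the only one of these with q under 0.05 in the authors' deposited table (q = 0.00362). Eif2ak3 (PERK, the kinase of the endoplasmic reticulum) stood at 1112 and 1348 against 1898 and 1929. Both kinases lay clear of the WT range, by more than libraries of one label differed. Eif2ak4 (GCN2, which senses uncharged tRNA) lay on the other side at 1333 and 1424 against 1315 and 780, with 1 library almost level with WT. Eif2ak1 (HRI) overlapped, and Dele1 (listed under an older clone name), the mitochondrial activator of HRI, stood at 647 and 1140 against 1147 and 1252.

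Of 14 genes for eIF2, its exchange factor eIF2B and its phosphatases, 3 lay above and 4 below both WT libraries, 0 passed in limma-trend, and the median was -0.0056. Over all genes, 14.3% lay above and 21.4% below. Ppp1ca, a catalytic subunit of protein phosphatase 1, stood at 2672 and 2628 in WT, against 3764 and 4050 under the Ythdf1 KO label (q = 0.00844 in the authors' deposited table). Ppp1r15b, the constitutive counterpart of Ppp1r15a, stood at 6088 and 6746 against 7024 and 7322. Eif2s3x differed by only 1.02 times, and its direction turned with quantile normalisation. Among the lower ones were the eIF2B subunits Eif2b2 and Eif2b3, with ratios of 0.546 and 0.710, and the initiation factor Eif2d, with 0.664. Eif2b2 rested on 1 library, with a log2 difference of -1.14 that was -0.22 without Ythdf1 KO 2 and -2.05 without Ythdf1 KO 1. Eif2b3 depended on the transcript, with a log2 difference of -0.49 that was -0.13 with its listed transcripts summed.

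Among 11 bZIP partners of ATF4, 2 lay above and 2 below both WT libraries and 0 passed in limma-trend. Cebpg, which pairs with ATF4 on amino acid genes, stood at 1241 and 890.5 in WT, against 1590 and 1382 under the Ythdf1 KO label. Atf2 stood at 959.2 and 902.6 against 1088 and 1038. Atf5, itself an ATF4 target that is translated like Atf4, stood lower at 443 and 485.6 against 362.6 and 126.6 on transcript NR_033136.1. Its log2 difference of -1.11 leaned on Ythdf1 KO 2, at -0.35 without that library and -1.865 without Ythdf1 KO 1. Maf stood lower at 716.9 and 724.9 against 422.7 and 328.4. These counts lie near the shares of all genes (14.3% above and 21.4% below), and the other 7 partners overlapped between the groups.

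ATF4 targets of amino acid supply numbered 19, of which 5 lay above both WT libraries and 1 below, against 14.3% and 21.4% of all genes. In limma-trend 0 passed, and the median log2 difference was 0.04. That median was 0.31 over members with a mean of at least 500 and 0.18 with quantile normalisation, and with 1 library left out it ranged from -0.03 (without Ythdf1 KO 2) to 0.15 (without WT 1). Slc7a5 (LAT1, an importer of large neutral amino acids) stood at 251.4 and 302.9 in WT, against 602.1 and 980.2 under the Ythdf1 KO label, a ratio of 2.85 (q = 0.00765 in the authors' deposited table). Slc6a9, a glycine transporter, stood at 396.8 and 543.2 against 929.7 and 749.4. Phgdh, the first enzyme of serine synthesis, had 242.3 and 231.2 against 590.4 and 262.2, so that 1 library carried its difference. Pycr1, an enzyme of proline synthesis, was the one below, at 180.3 and 215 against 81.44 and 163. Slc3a2, the partner chain of Slc7a5, overlapped between the groups at 870.2 and 1273 against 1033 and 914.8.

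Targets in tRNA charging and translation gave 3 above and 1 below of 13 tested, against 14.3% and 21.4% of all genes. Their median was 0.26, and 0 passed in limma-trend. Cars, Aars and Wars, the synthetases for cysteine, alanine and tryptophan, had ratios of 1.53, 1.34 and 1.26, and Gars, for glycine, 0.729. The remaining ATF4 and CHOP targets gave 3 above and 0 below of 19, with a median of 0.15 that was -0.01 without WT 2. Their 3 above lay near the 14.3% of all genes, while 21.4% of all genes lay below. Trib1, a relative of Trib3, stood at 5192 and 5209 in WT, against 6427 and 8949 under the Ythdf1 KO label (q = 0.0475 in the authors' deposited table), while Ero1l, an oxidase of the endoplasmic reticulum, and Stc2, a secreted glycoprotein, had ratios of 1.58 and 1.21. Fgf21, another stress hormone under ATF4, stood at 101.4 and 0 in WT and 25.21 and 0 in the others.

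**Figure D4:**
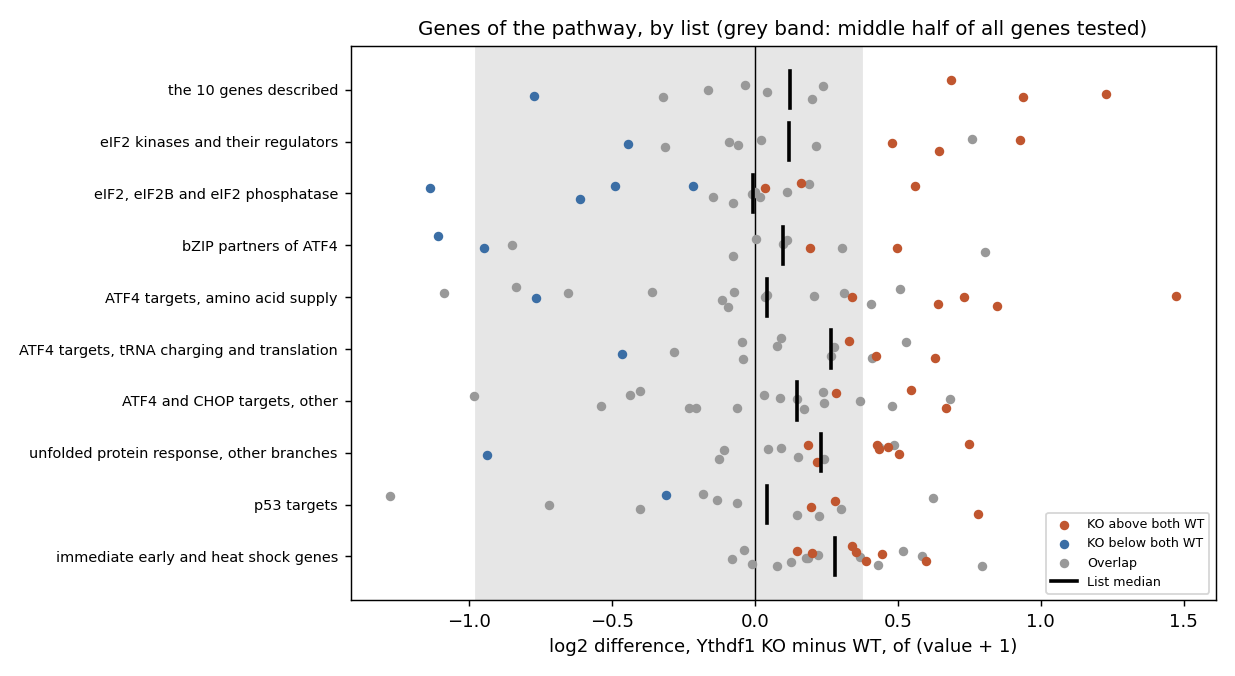
Limma-trend log2 difference of (value + 1), libraries labelled Ythdf1 KO minus WT (horizontal axis), of each tested gene in the lists of the pathway and its neighbours, coloured by whether the groups overlap, with a black line at the list median. The medians lie between -0.0056 for eIF2 and eIF2B genes and 0.28 for immediate early and heat shock genes, and the point furthest right is Slc7a5 at 1.47.

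Genes of other stress pathways that are known to act on Gdf15, Atf3 or Cebpb were listed beside these. In the other branches of the unfolded protein response, 7 of 16 lay above both WT libraries and 1 below, against 14.3% and 21.4% of all genes, with a median of 0.23. Manf, Hsp90b1 and Calr, a secreted factor and chaperones of the endoplasmic reticulum, had ratios of 1.66, 1.43 and 1.39. Dnajb9, a co-chaperone, had 0.521 and was the only one with q under 0.05 in the authors' deposited table. Of 14 p53 targets, 3 lay above and 1 below, beside the same shares of all genes. Plk3, a kinase, stood at 3583 and 2629 in WT, against 5255 and 5291 under the Ythdf1 KO label, whereas Btg2 and Cdkn1a, which restrain the cell cycle, had ratios of 1.22 and 1.15 and Mdm2, the ligase that degrades p53, 0.807.

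Immediate early and heat shock genes, some of which respond to handling of tissue, had 7 of 20 above both WT libraries and 0 below, against 14.3% and 21.4% of all genes. Their median was 0.28, and 0.02 without WT 2. Their summed normalised read count was 212819 and 176561 in WT 1 and 2 and 235155 and 237727 under the Ythdf1 KO label. The sum thus stood higher where Atf3 did between the labels and between WT 1 and WT 2. Between the libraries labelled Ythdf1 KO the sums were nearly level, while Atf3 was higher in the first. Klf4 alone, at 45162 and 56697 there, differed by more than the sums did, so their order does not describe the list as a whole. Fos stood at 24401 and 20792 against 30032 and 31337, Hspa8, a constitutive chaperone, at 11523 and 12383 against 16766 and 19461, and Dusp1, a phosphatase, at 3795 and 3863 against 5142 and 4889. Egr1, another immediate early factor, overlapped at 24191 and 18656 against 24128 and 17727. The part of this list in the values of Atf3, Cebpb and Gdf15 was not tested.

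Over the 9 lists together, 36 of 135 tested genes (26.7%) lay above both WT libraries and 11 (8.15%) below, against 14.3% and 21.4% of all genes, and in limma-trend 0 passed. At an unadjusted p under 0.05 there were 13 higher and 2 lower, where 1.92% and 3.52% of all genes were called. The authors' deposited table called 7 higher (Eif2ak2, Ppp1ca, Slc7a5, Trib1, Plk3, Fos and Hspa8) and Dnajb9 lower, where it called 1.38% and 3.58% of all genes. Over the whole table, genes with a mean of at least 500 had a median log2 difference of 0.07, above that of -0.09 over all genes tested. Of these 7431 genes, 313 were higher and 138 lower at an unadjusted p under 0.05 in limma-trend. Which side leads in the background thus depends on the level of the genes compared.

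Markers of the labelled cell type were present in every library, with a summed normalised read count of 12 colon epithelium markers between 765322 and 1036976, most of it from Muc2. Of the 12, 3 lay above both WT libraries (Epcam, Krt18 and Car4) and 4 below (Car1, Cdx2, Phgr1 and Krt20). Among all genes, 14.3% lay above and 21.4% below. Car1, a carbonic anhydrase of colonocytes, stood at 102727 and 116128 in WT, against 73552 and 42374 under the Ythdf1 KO label. Car4, another carbonic anhydrase, went the other way, at 9792 and 9705 against 10222 and 12343. Where Gdf15, Cebpb and Atf3 stood higher, these 4 stood lower and the other 3 higher. The part of these markers in those values was not tested. Leukocyte markers summed to 2168 and 2103 in WT and to 1253 and 1554 under the Ythdf1 KO label, over 13 listed of 15. Of these, 0 lay above both WT libraries and 4 below, against 14.3% and 21.4% of all genes. Ptprc, the pan-leukocyte antigen, stood at 666.1 and 280.7 against 253 and 118.3, and Lyz2 was at 0 in both libraries labelled Ythdf1 KO. Cd79a, Adgre1 and S100a9 were at 0 in at least 1 library. This list therefore stood lower where Gdf15, Cebpb and Atf3 stood higher, and its part in their values was not tested. Stroma, muscle, vessel and nerve markers summed to 2606 and 4491 in WT and to 3269 and 1914 in the others, so the sums overlapped, while 0 of 16 lay above both WT libraries and 4 below. Their median log2 difference was -0.39, and it moved from -1.31 without WT 1 to 0.15 without WT 2. Pdgfra, a fibroblast receptor, stood at 276.2 and 349.3 against 17.45 and 78.58 (q = 0.0456 in the authors' deposited table). Pdgfrb, by contrast, overlapped at 484.7 and 567.4 against 848.3 and 481.4. The sums of erythroid and small intestine markers also overlapped, with 2 above and 1 below of 6 erythroid and 0 above and 3 below of 6 tested small intestine markers. Beside the stroma, erythroid and small intestine lists, the shares of all genes were again 14.3% above and 21.4% below. The part of these lists in the values of Gdf15, Cebpb and Atf3 was not tested. In bulk RNA, fewer cells of a type and less RNA per cell cannot be told apart.

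The genes whose values over the 4 libraries lay closest to those of Gdf15 were Smpd4, Zbtb4, Ckap4, Ankrd13b and Uimc1, none of which is in the lists above. Likeness was the sum of absolute differences between gene-centred log2 values, over 7430 other genes with a mean of at least 500. That sum was 0.181 for Smpd4, a neutral sphingomyelinase, and 0.372 for Uimc1, a ubiquitin-binding protein of DNA repair. Smpd4 stood at 359.6 and 362.5 in WT, against 816.3 and 809 under the Ythdf1 KO label, and Zbtb4, a methyl-DNA binding repressor, at 507.2 and 527 against 1223 and 1056. With 4 libraries in 2 groups, such closeness is a description of these values.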

How the data were processed

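Input RNA of mouse colon epithelium was measured in 4 libraries, 2 per genotype label. Per the submitters' processing notes, the tools, named with no role or order, were Bowtie2 2.2.5 and CASAVA 1.8, then deepTools 3.3.0, HOMER 4.10, MACS2 2.1.0 and SAMtools 1.3.1, and the build was mm10. For the counting program and its strand setting, the sources used here give nothing. The deposited signal per transcript is a read count that the authors divided by a size factor per library, as read from the values: 100% were whole multiples, within 0.001, of a step of 0.827 to 1.13. Per the file headers, the authors also deposited a log2 fold change with a p-value and a q-value for 87526 transcripts.

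For each symbol the transcript with the highest mean was kept, since isoforms can count shared reads again, and 23116 genes entered a robust limma-trend fit (limma 3.58.1, R 4.3.3) of log2(value + 1), with genotype label as the only term. Intervals of counts are exact Poisson intervals (95%) and cover counting error only. edgeR 4.0.16 and DESeq2 1.42.0 were run on recovered reads as alternatives, beside other pseudocounts, filters, normalisation, summed transcripts, a replicate block and leaving out each library. Members and lists were chosen with earlier results of these data known. The 10 genes are all described, and each list's genes were named by a rule: up to 3 per side with groups that do not overlap, a mean of at least 100 and the largest differences. Marker lists were given as sums with genes at 0 named, and the 5 genes closest to Gdf15 were added. Named outside that rule are Eif2ak1, Slc3a2, Fgf21, Egr1, Klf4, Muc2, Car1, Car4, Cdx2, Phgr1 and Krt20. So are Epcam, Krt18, Ptprc, Csf1r, Cd68, Pdgfra and Pdgfrb, and all of these were chosen after their values were seen. Of 207 list entries, 187 matched by symbol and 14 through RefSeq gene identifiers. The other 6, Nars1 and Adm2 among them, were not analysed here. Lists were described by counts and medians, without a set test. Same-numbered libraries of the 2 labels did not deviate together (correlation of replicate differences over genes of -0.00795), so the numbers were not taken as pairs.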

Additional observations from a re-analysis of the deposited data

How the results depend on the processing

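Gdf15 (log2 differences of 1.16 to 1.30), Cebpb (0.72 to 1.15) and Atf3 (0.39 to 0.98) kept their direction under every alternative run, with adjusted p of 0.000355 to 0.872 for Gdf15, 0.0073 to 0.872 for Cebpb and 0.037 to 0.941 for Atf3, the lowest from DESeq2. Against 0 genes in limma-trend (1257 at an unadjusted p under 0.05), limma without a trend called 632 genes (113 higher, 519 lower) and DESeq2 on recovered reads 1431 (414 higher, 1017 lower), with 3 of the 10 genes and 12 of the other pathway genes, while edgeR called 0 (1073 at an unadjusted p under 0.05). With a replicate block 0 genes were called (1760 at an unadjusted p under 0.05), and Gdf15 stayed at 1.23 with an adjusted p of 0.648. Leaving out any 1 library called 0 genes, with 660 or 852 at an unadjusted p under 0.05 when WT 1 or WT 2 was dropped, and 1681 or 1471 when Ythdf1 KO 1 or 2 was. The sign turned for Atf4 with edgeR (0.0020), for Chac1 (1.11), Trib3 (0.26) and Eif2s3x (-0.061) with quantile normalisation, and with 1 library left out for Atf4 (-0.23 to 0.16), Chac1 (-2.12 to 1.48), Ddit3 (-0.36 to 0.76), Sesn2 (-0.43 to 0.52) and Trib3 (-0.56 to 0.23). The cause was not tested. Quantile normalisation gave 441 higher and 501 lower genes at an unadjusted p under 0.05, against 444 and 813. A mean of at least 500 gave 313 and 138 of 7431 genes and raised the median of all genes by 0.15. With 2 libraries per label, the intervals of Chac1 and Trib3, at 10 to 118 reads, leave their directions undetermined.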
